A study of Mus musculus with 933 samples.

Results

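The heat shock chaperones described here are 10 genes chosen by name, of 23845 genes listed in each table: Hspa8, Hspa1a, Hspa1b, Hsph1, Dnajb1, Hsp90aa1, Hsp90ab1, Hspd1, Hspe1 and Hsf1. All 10 were listed in all 12 tables. The data are single-embryo Smart-seq2 RNA profiles of 933 mouse embryos of strain FVB, each made by ICSI, the placing of 1 sperm inside an egg with a fine needle. Sperm were drawn from testis, from caput epididymis, which sperm enter first on leaving the testis, or from cauda epididymis, which holds the mature store. In the RNA experiments, zygotes of caput sperm received GFP, EpiM small RNA, EpiM miRNA or EpiM tRF (fragments of transfer RNA) 3 h after fertilization, and the references were uninjected caput embryos, GFP-injected caput embryos or cauda embryos. Embryos were taken as 2-cell embryos at 18, 24 and 28 h after ICSI and as 4-cell, 8-cell, morula and blastocyst embryos, in 33 groups of 8 to 42. A cohort is the set of embryos of a stage in one table. A library is 1 embryo, and nothing in the labels says which embryos share a male or a female, so p-values measure the spread between embryos.

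Molecular chaperones bind unfolded proteins and help them fold. HSP70 proteins (Hspa8, the constitutive form, and Hspa1a and Hspa1b, the classical heat-inducible forms) work in an ATP cycle that J-domain proteins such as Dnajb1 start and exchange factors such as the HSP110 protein Hsph1 complete. HSP90 (Hsp90aa1, the inducible form, and Hsp90ab1, the constitutive form) takes over clients such as kinases and hormone receptors, Hspd1 and Hspe1 form the folding chamber of mitochondria, and Hsf1 is the transcription factor that switches on the heat shock genes by binding repeats of GAA and TTC. In the mouse, HSP70 transcripts are known among the early products of the embryo's own genome, and Hsf1 is known as a maternal factor.

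Promoters are shown because Hsf1 acts through repeats of this kind and the members moved in both directions in the 2-cell embryo. RefSeq windows (build GRCm38.p6) of 250 bases before to 50 bases after the start were available for 6 of the 10 genes, with 9 windows in all; Hspa8, Hsp90aa1, Hsp90ab1 and Hsf1 had none. The letters searched were GAANNTTC and TTCNNGAA, each of which reads the same on both strands, and matches to the pair may overlap each other. Capitals mark the matches in 4 windows, at chr17:34972107-34972406 (minus strand) for Hspa1a, chr17:34959189-34959488 (minus strand) for Hspa1b, chr5:149636287-149636586 (minus strand) for Hsph1 and chr1:55087898-55088197 (plus strand) for Hspe1:
Hspa1a: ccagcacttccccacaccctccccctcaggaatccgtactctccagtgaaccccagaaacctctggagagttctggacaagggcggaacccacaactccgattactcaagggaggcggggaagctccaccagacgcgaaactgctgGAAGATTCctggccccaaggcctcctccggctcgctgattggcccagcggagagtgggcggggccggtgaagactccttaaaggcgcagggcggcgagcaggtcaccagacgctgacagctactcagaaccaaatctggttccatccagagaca
Hspa1b: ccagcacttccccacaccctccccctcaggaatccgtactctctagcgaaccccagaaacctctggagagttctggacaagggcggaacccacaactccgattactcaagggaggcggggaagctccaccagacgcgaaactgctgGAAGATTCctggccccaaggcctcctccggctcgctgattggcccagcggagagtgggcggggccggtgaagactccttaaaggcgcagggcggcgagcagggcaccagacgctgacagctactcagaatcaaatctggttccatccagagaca
Hsph1: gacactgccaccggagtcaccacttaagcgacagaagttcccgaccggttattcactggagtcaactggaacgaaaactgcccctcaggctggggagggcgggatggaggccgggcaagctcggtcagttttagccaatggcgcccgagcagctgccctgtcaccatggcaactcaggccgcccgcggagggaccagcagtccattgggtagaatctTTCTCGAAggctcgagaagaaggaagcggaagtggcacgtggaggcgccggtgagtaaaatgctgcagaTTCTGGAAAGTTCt
Hspe1: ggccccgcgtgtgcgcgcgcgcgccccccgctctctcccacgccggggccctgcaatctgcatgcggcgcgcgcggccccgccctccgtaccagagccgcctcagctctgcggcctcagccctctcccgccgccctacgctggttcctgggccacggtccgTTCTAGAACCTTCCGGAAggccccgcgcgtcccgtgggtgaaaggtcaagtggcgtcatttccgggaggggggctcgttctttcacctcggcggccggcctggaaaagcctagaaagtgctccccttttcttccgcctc
The Hspa1a and Hspa1b windows hold 1 match each, from 104 to 97 bases before the start, and are identical at 296 of 300 positions (98.7%). The Hsph1 and Hspe1 windows hold 3 matches each, and the 3 of Hspe1 overlap in a run of 18 bases. Hspe1 and Hspd1 lie head to head on chromosome 1, and the same run stands in 1 of the 2 Hspd1 windows, on the other strand. The other Hspd1 window and both Dnajb1 windows hold no match. Of 32851 windows of this length, 15.1% hold at least 1 match and 0.256% hold 3 or more. A match describes letters in a window and not a bound site.

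Values are TPM, shares of the transcripts of a library, so a rise of a gene is relative to all other genes. The depth of a library cannot be read from TPM. Genes at 1 TPM or more numbered 4864 to 12629 per library (median 10627.0). No libraries were identical. By correlation with the median profiles of the stages, 16 of 933 libraries were closest to another stage than that of their label: 6 of the 2-cell, 3 of the 8-cell and 7 of the blastocyst embryos. The clearest were a 28 h cauda embryo (number 1) with an r of 0.939 to the 18 h profile and 0.729 to its own, an 8-cell cauda embryo (number 23) closest to the 24 h profile, and an 8-cell caput embryo (number 10) closest to the blastocyst profile. The 28 h cauda embryo had 86.8 TPM of Hspa8 and was listed at 0 for Hspa1a and Hspa1b, values like those of 18 h embryos. Without the 16 libraries, the medians of the groups they belong to were 0.913 to 1.22 times those with them. Hspa1a and Hspa1b are near-identical copies on chromosome 17, and how the authors assigned reads shared by copies or pseudogenes is not given in the sources used here, so each of the 2 values is uncertain and their sum is also given.

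Hspa8 (chromosome 9, 40801276 to 40805202) had the highest group medians of all members at the 4-cell, 8-cell and morula stages, and a wide range of level over development. Its group medians were 157.2 to 162.0 TPM at 18 h, 314.2 to 361.5 TPM at 24 h, 817.7 to 912.1 TPM at 28 h, 5566.0 to 6803.0 TPM at the 4-cell stage, 6841.2 to 7252.0 TPM at the 8-cell stage, 7268.3 to 9957.8 TPM in morulae and 4216.9 to 7485.3 TPM in blastocysts. The ranges of neighbouring stages did not overlap up to the morula, and those of morula and blastocyst did. In cauda embryos the highest stage median, in morulae, was 53.1 times the lowest, at 18 h. Levels of different stages come from different tables and sessions, so no test was made between them. How many of all genes have such medians without overlap was not counted, here or for the other members.

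Hspa1a (chromosome 17, 34969359 to 34972156) and Hspa1b (chromosome 17, 34956429 to 34959238) had a transient course. Hspa1a had group medians of 3.46 to 4.14 TPM at 18 h, 15.3 to 22.5 TPM at 24 h and 58.6 to 75.7 TPM at 28 h. It then had medians of 6.39 to 16.1 TPM at the 4-cell stage, 25.8 to 26.9 TPM at the 8-cell stage, 3.69 to 7.14 TPM in morulae and 0 to 0.44 TPM in blastocysts. The group medians were thus high at 28 h, low at the 4-cell stage and higher again at the 8-cell stage, without overlap between neighbouring stages. Single embryos overlapped widely, at 0 to 156.9 TPM in 4-cell and 1.27 to 139.9 TPM in 8-cell embryos. The 8-cell groups come from a table of their own, so stage and table cannot be told apart. Hspa1b had medians of 4.39 to 4.98 TPM at 18 h, 11.2 to 16 TPM at 24 h, 53.2 to 65.7 TPM at 28 h, 4.46 to 11.4 TPM at the 4-cell stage, 19.8 to 24.1 TPM at the 8-cell stage, 3.17 to 5.09 TPM in morulae and 0 to 0.475 TPM in blastocysts, the same order. Hspa1a was listed at 0 in 59.8% of blastocysts and Hspa1b in 55.5%, against 0% and 1.89% of 8-cell embryos. Single 4-cell embryos reached far above their group, up to 156.9 TPM of Hspa1a in a cauda embryo of cohort 2.

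**Figure D1:**
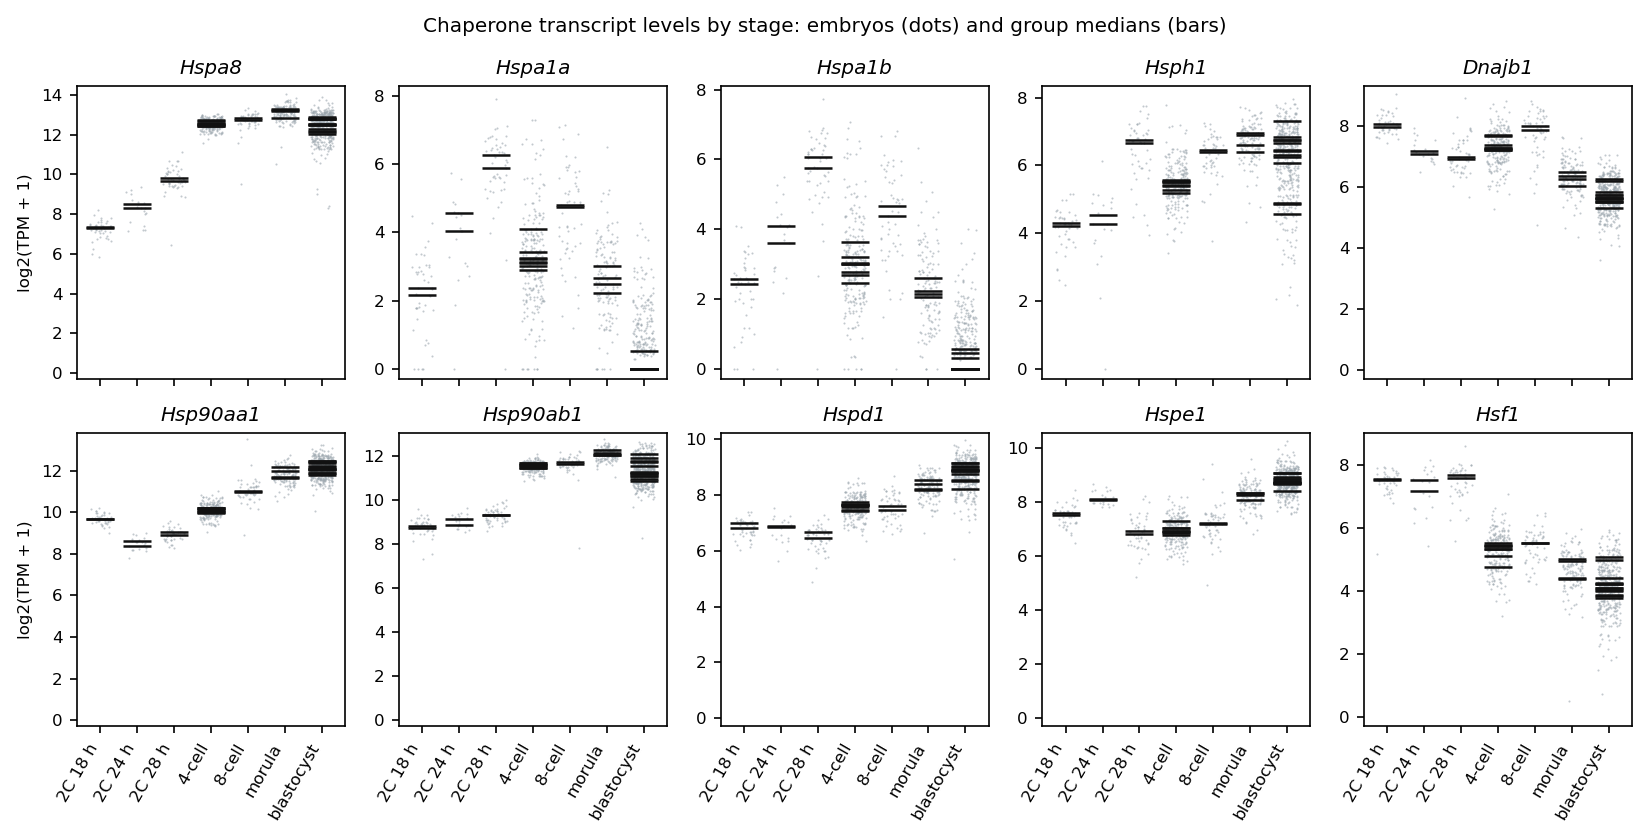
Levels of the 10 genes, as log2(TPM + 1), in every embryo (dots) at 7 stages and times, with the median of each group as a bar. Hspa8 group medians stand at 157.2 to 162.0 TPM at 18 h and at 7268.3 to 9957.8 TPM in morulae, and Hspa1a peaks at 28 h with medians of 58.6 to 75.7 TPM.

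The 2-cell embryos show how the transcripts changed with time at 1 stage, tested as 28 h minus 18 h. Of the 10 members, 5 were higher at 28 h and 4 lower, in cauda and in caput embryos alike, and Hsf1 did not pass the test. Most genes changed between these times: limma called 72.3% of 13249 genes in cauda embryos and 68.9% of 13537 in caput embryos, so 9 of 10 members called is close to what genes in general showed. Over all tested genes the median change was -0.139 in cauda and 0.031 in caput embryos on the log2 scale, against 0.18 and 0.33 for the 10 members. Oocyte markers summed to group medians of 5590.9 to 6009.9 TPM at 28 h and 11776.4 to 12414.1 TPM at 18 h, with all 6 markers present. Markers of the 2-cell embryo summed to 2795.7 to 2877.0 TPM at 28 h and 1476.8 to 1734.7 TPM at 18 h. Cumulus cell markers summed to 4.59 to 4.93 TPM at 28 h and 11.6 to 16.4 TPM at 18 h, with 0 to 1 of 11 genes at a group median of 1 TPM or more. Ptx3, Tnfaip6, Amh, Inha, Inhba, Foxl2, Fshr and Cyp11a1 had group medians of 0 at both times. In single embryos the sum reached 37 TPM at 18 h and 19.1 TPM at 28 h. The part of these 3 sets of markers in the changes was not tested.

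Hspa8 had 86.8, 912.1 and 2236.8 TPM (lowest, median and highest of 24) in 28 h cauda embryos, against 95.3, 157.2 and 223.9 TPM in the 25 cauda embryos of 18 h. In caput embryos it had 469.6, 817.7 and 1362.7 TPM at 28 h (n = 25), against 57.3, 162.0 and 294.7 TPM at 18 h (n = 19). All 25 caput and 23 of 24 cauda embryos of 28 h stood above every 18 h embryo of their sperm source, and the exception was the embryo described above. The change was 2.54 ± 0.17 on the log2 scale in cauda (SE, 5.80-fold, adjusted p = 1.2e-26) and 2.53 ± 0.18 in caput embryos (SE, 5.79-fold, adjusted p = 1.62e-24), by limma with Benjamini-Hochberg adjustment. In cauda embryos 7.43% of tested genes had a larger positive change.

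Hspa1a had 0, 75.7 and 237.2 TPM in 28 h cauda embryos, against 0, 4.14 and 21.2 TPM at 18 h. In caput embryos it had 25.9, 58.6 and 133.4 TPM at 28 h, against 0, 3.46 and 10.8 TPM at 18 h. The groups did not overlap in caput embryos, and 20 of 24 cauda embryos stood above all those of 18 h. Hspa1a changed by 3.33 ± 0.34 in cauda (SE, adjusted p = 3.57e-16) and by 4.09 ± 0.36 in caput embryos (SE, adjusted p = 2.57e-19). Hspa1b had 0, 65.7 and 209.5 TPM in 28 h cauda embryos, against 0.53, 4.98 and 16.1 TPM at 18 h, and 21 of 24 stood above all those of 18 h. It changed by 3.16 ± 0.32 in cauda and by 3.75 ± 0.35 in caput embryos (SE, adjusted p = 7.73e-16 and 4.36e-18). The sum of both genes changed by 3.36 ± 0.36 in cauda (SE, adjusted p = 1.61e-14) and by 4.18 ± 0.39 in caput embryos (SE, adjusted p = 9.56e-18). Without the libraries closest to another stage, Hspa8, Hspa1a and Hspa1b changed by 2.69, 3.71 and 3.56 in cauda and by 2.63, 4.23 and 3.88 in caput embryos.

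Among the partners of HSP70, Hsph1 rose and Dnajb1 fell. Hsph1 (chromosome 5, 149616843 to 149636498) had 14.6, 106.2 and 216.2 TPM in 28 h cauda embryos, against 5.2, 17.5 and 34.4 TPM at 18 h. It changed by 2.46 ± 0.25 in cauda and 2.15 ± 0.27 in caput embryos (SE, adjusted p = 1.29e-15 and 1.16e-11). At 24 h its group medians were 18.3 to 22 TPM, near those of 18 h, while those of Hspa8 and Hspa1a were above their 18 h values. The 24 h embryos have a session of their own, so time and session cannot be told apart there. Dnajb1 (chromosome 8, 83608175 to 83612653) had 49.9, 118.2 and 476.0 TPM in 28 h cauda embryos, against 170.3, 264.3 and 372.4 TPM at 18 h. It fell by 0.95 in cauda and by 1.08 in caput embryos on the log2 scale (SE 0.13 and 0.14, adjusted p = 4.22e-10 and 7.43e-11). The highest Dnajb1 value at 28 h was above every 18 h cauda embryo, and 16 of 24 were below all of them. Of the windows described above, those of Hsph1 hold 3 matches, those of Hspa1a and Hspa1b 1 each and those of Dnajb1 none. Hspe1, also with 3, fell (values below). Whether matches and changes are related was not tested. After the 2-cell stage Hsph1 had group medians of 35.6 to 46.7 TPM at the 4-cell stage, 83.9 to 86.1 TPM at the 8-cell stage, 83.7 to 122.6 TPM in morulae and 22.9 to 156.4 TPM in blastocysts, where groups differed most. Dnajb1 had 144.9 to 205.7 TPM at the 4-cell stage, 229.8 to 250.9 TPM at the 8-cell stage, 64.3 to 88.8 TPM in morulae and 38.5 to 75.2 TPM in blastocysts. Its medians were thus lowest at the last 2 stages, whose ranges overlap.

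**Figure D2:**
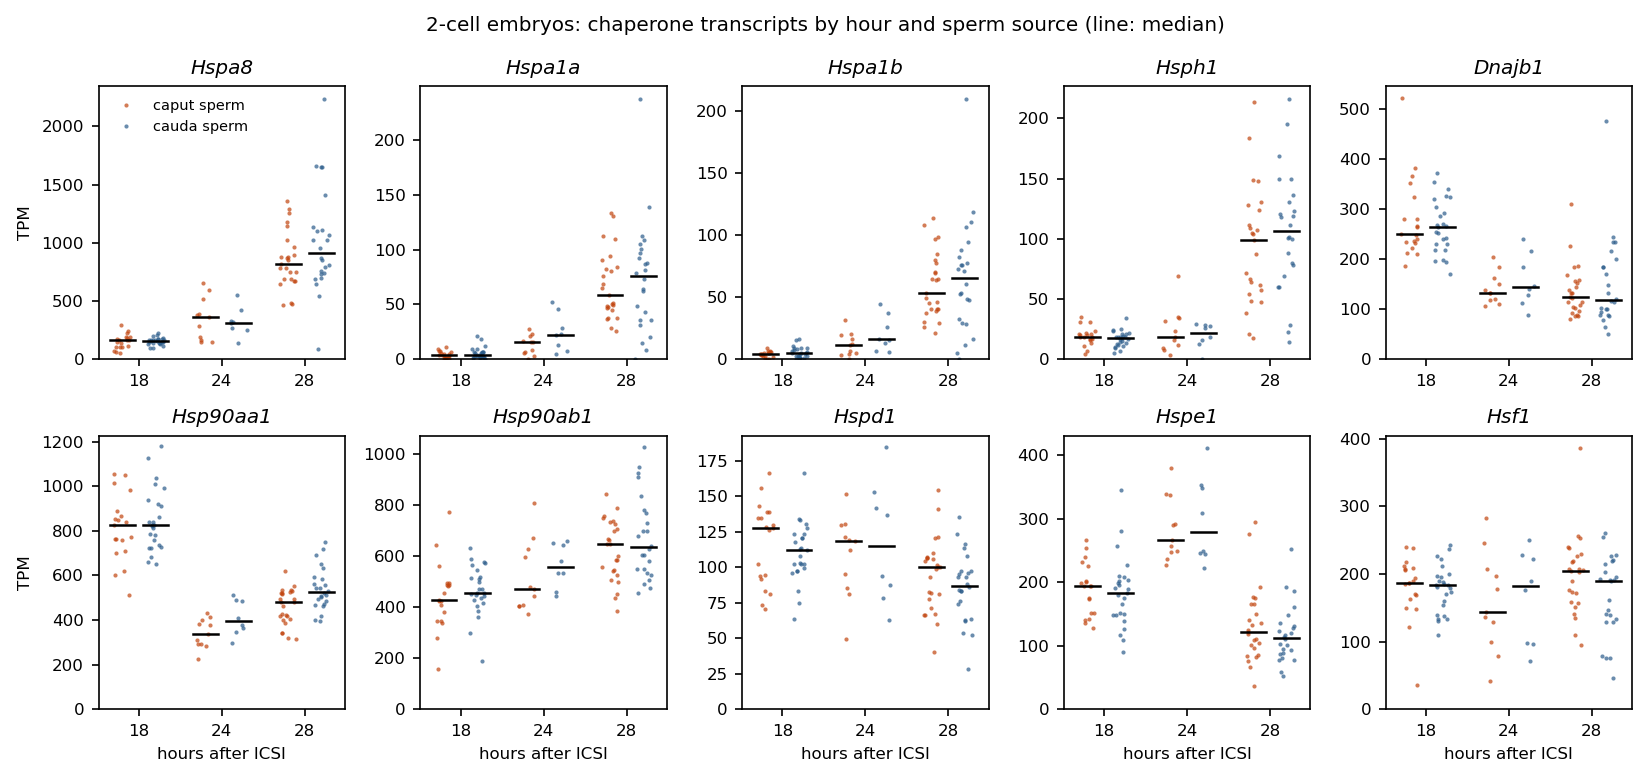
TPM of the 10 genes in each 2-cell embryo at 18, 24 and 28 h after ICSI, caput sperm left of cauda sperm, with the median as a line. Hspa8, Hspa1a, Hspa1b and Hsph1 stand highest at 28 h, whereas Hsp90aa1 and Dnajb1 stand highest at 18 h, with medians of 825.0 to 827.2 TPM and 250.0 to 264.3 TPM.

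The 2 cytosolic HSP90 genes moved in opposite directions. Hsp90aa1 (chromosome 12, 110691036 to 110696395) had 394.9, 523.7 and 751.4 TPM in 28 h cauda embryos, against 649.7, 825.0 and 1178.8 TPM at 18 h, and fell by 0.65 (SE 0.08, adjusted p = 1.36e-12). In caput embryos it fell by 0.83 (SE 0.08, adjusted p = 4.09e-16). Hsp90ab1 (chromosome 17, 45567778 to 45573261) had 456.4, 633.1 and 1026.6 TPM in 28 h cauda embryos, against 186.8, 454.6 and 631.6 TPM at 18 h, and rose by 0.53 in both sperm sources (SE 0.10 and 0.11, adjusted p = 3.83e-06 and 1.65e-05). All 24 cauda embryos of 28 h were below the 18 h median of Hsp90aa1 and above that of Hsp90ab1.

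TPM are per length, so the 2 genes can be set against each other. In cauda embryos the ratio of Hsp90aa1 to Hsp90ab1 had a median of 1.79 at 18 h, 0.76 at 24 h, 0.795 at 28 h, 0.375 at the 4-cell stage, 0.568 at the 8-cell stage, 0.831 in morulae and 1.59 in blastocysts. Hsp90aa1 was the higher gene in 25 of 25 embryos at 18 h, in 0 of 88 at the 4-cell stage and in 176 of 180 blastocysts. After the 2-cell stage, group medians of both genes were above those of 28 h. Hsp90aa1 had group medians of 1000.0 to 1178.4 TPM in 4-cell embryos, 2013.3 to 2100.4 TPM in 8-cell embryos, 3248.9 to 4574.0 TPM in morulae and 3597.9 to 5647.7 TPM in blastocysts, and Hsp90ab1 had 2779.2 to 3268.7, 3162.6 to 3436.3, 4273.9 to 4930.9 and 1887.9 to 4315.0 TPM at the same stages. The ranges of morula and blastocyst overlapped for each gene. In cauda groups alone those of Hsp90ab1 did not, at 4285.6 to 4524.1 TPM in morulae and 1996.1 to 3916.9 TPM in blastocysts. Its group means were also lower in blastocysts, without overlap.

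The mitochondrial pair was lower at 28 h. Hspd1 (chromosome 1, 55077833 to 55088243) had 28.3, 87.1 and 135.8 TPM in 28 h cauda embryos, against 63.8, 112.3 and 166.6 TPM at 18 h, and fell by 0.40 in cauda (SE 0.12, adjusted p = 0.00198) and by 0.30 in caput embryos (SE 0.13, adjusted p = 0.0331). The groups overlapped widely, and this was the weakest of the member calls: in caput embryos the adjusted p was 0.0612 with only the groups compared in the fit, 0.165 with a mean for each session and group, and 0.0746, 0.0874 and 0.189 without session 114, 122 or 126. In cauda embryos it was 0.18 without session 126, and the Hspe1 adjusted p in caput embryos was 0.0592 without it. Session is the number in the library names. Hspe1 (chromosome 1, 55088148 to 55091317) had 52, 111.6 and 252.7 TPM in 28 h cauda embryos, against 89.4, 182.5 and 345.6 TPM at 18 h. It fell by 0.66 in cauda and by 0.63 in caput embryos (SE 0.14 each, adjusted p = 8.55e-06 and 7.48e-05). At 24 h Hspe1 was at its 2-cell maximum, with group medians of 265.9 to 278.7 TPM. All embryos of 24 h came from a session of their own, so that time and its session cannot be told apart. At the 4-cell stage Hspd1 had group medians of 173.1 to 216.4 TPM and Hspe1 108.3 to 154.8 TPM, and in morulae 291.1 to 372.6 and 267.4 to 319.9 TPM. In blastocysts Hspd1 had 297.4 to 567.3 TPM, a range that overlaps that of morulae, and Hspe1 340.1 to 546.1 TPM, which does not. The ratio of Hspe1 to Hspd1 in cauda embryos had medians of 1.52 at 18 h, 2.6 at 24 h, 1.33 at 28 h, 0.644 at the 4-cell stage and 0.953 in blastocysts.

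**Figure D3:**
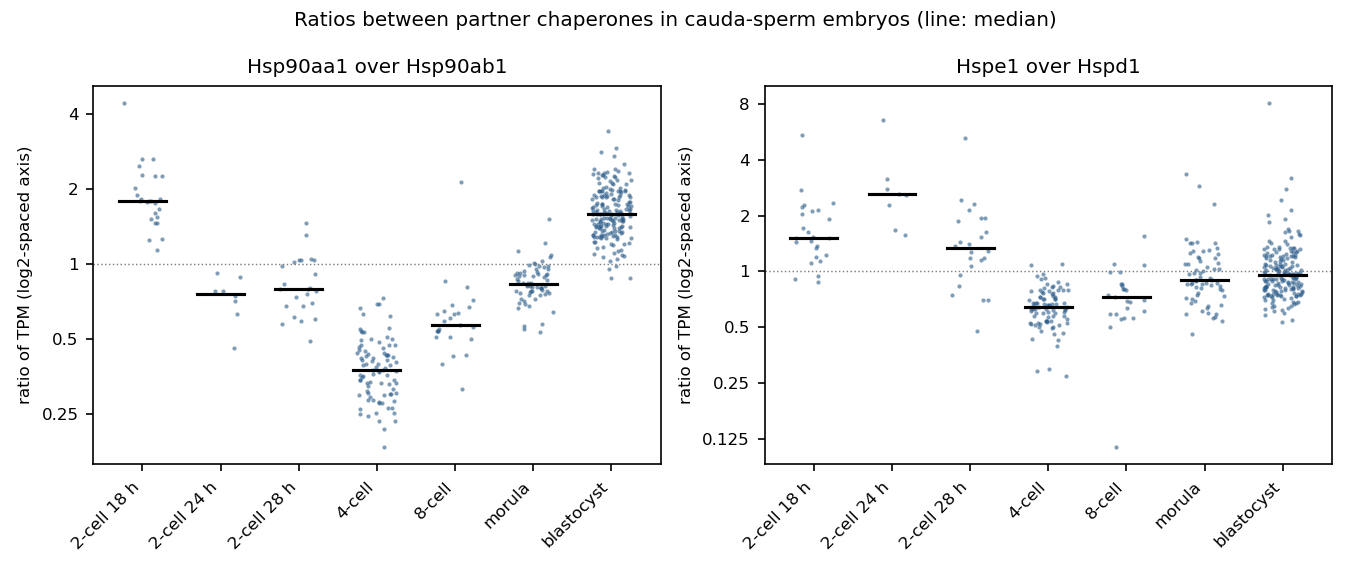
Ratio of TPM between Hsp90aa1 and Hsp90ab1 and between Hspe1 and Hspd1 in each cauda embryo, on a log2-spaced axis, with the median as a line. The first ratio has a median of 1.79 at 18 h, 0.375 at the 4-cell stage and 1.59 in blastocysts.

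Hsf1 (chromosome 15, 76477362 to 76501155) had similar levels at 18 h and 28 h. It had 46.6, 190.2 and 260.3 TPM in 28 h cauda embryos, against 110.3, 183.5 and 243.0 TPM at 18 h, a change of -0.16 ± 0.15 (SE, adjusted p = 0.334), and in caput embryos the change was 0.13 ± 0.16 (SE, adjusted p = 0.496). After the 2-cell stage its group medians were 26 to 45.4 TPM in 4-cell embryos, 44.5 to 44.9 TPM in 8-cell embryos, 19.7 to 31.1 TPM in morulae and 12.6 to 32.8 TPM in blastocysts. The 2-cell medians of 144.0 to 204.5 TPM did not overlap those of any later stage.

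Whether the change over time differed between the sperm sources was tested as an interaction. No gene of 14969 passed in limma (0% called, 1328 at an unadjusted p under 0.05). The difference, caput minus cauda, was 0.76 ± 0.49 for Hspa1a (SE, adjusted p = 0.681) and -0.00 ± 0.25 for Hspa8 (SE, 95% interval -0.49 to 0.49).

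The sperm source and RNA comparisons ask whether embryos of immature sperm differ from those of cauda sperm and whether injected RNA changes them. Over the 22 such comparisons, 209 tests of members could be made, 1 passed and 20 had an unadjusted p under 0.05 in limma. Of all tested genes, limma called 0% to 3.05% per comparison. Those with an unadjusted p under 0.05 ranged from 415 of 12899 (caput minus cauda, 18 h) to 2366 of 12200 (caput minus cauda, blastocyst cohort 1). The shares of the member tests lie within these ranges. Hspa1a could be tested in 15 and Hspa1b in 18, since both were too low in most blastocysts.

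Between caput and cauda embryos no member passed in any of 10 comparisons. The share of all tested genes called by limma was 0% at 18 h (415 at an unadjusted p under 0.05), 0.00746% at 24 h and 0.0759% at 28 h. It was 1.12% and 0.573% in 4-cell cohorts 1 and 2, 0% in 8-cell embryos (541 at an unadjusted p under 0.05), 0.859% in morula cohort 1 and 2.12%, 0.28% and 1.84% in blastocyst cohorts 1, 2 and 4. Hspa8 differed little in 4-cell cohort 1, at 5915.6 ± 1147.0 TPM in caput and 5913.0 ± 880.5 TPM in cauda embryos (SD, n = 32 each). The 95% interval of its log2 change there was -0.13 to 0.10. At 28 h its means were 850.5 TPM in caput and 1010.5 TPM in cauda embryos, with log2 changes of -0.342 to 0.013 under other settings of the fit. Over all 22 comparisons of sperm source and RNA its log2 change ranged from -0.328 to 0.353. The smallest adjusted p belonged to Hspd1 in blastocyst cohort 1, at 366.9 ± 116.8 TPM in caput and 452.3 ± 111.1 TPM in cauda embryos (SD, n = 35 and 42), a change of -0.32 ± 0.11 (SE, adjusted p = 0.0829). Its partner Hspe1 changed by -0.26 ± 0.10 there (SE, adjusted p = 0.12). In blastocyst cohort 4 the change of Hspd1 was of the other sign, 0.32 ± 0.11 (SE, adjusted p = 0.104), with 567.7 ± 145.8 TPM in caput and 461.5 ± 144.9 TPM in cauda embryos (SD, n = 32 and 31). In 4-cell cohort 2, Hspd1 and Hspe1 changed by -0.35 ± 0.12 and -0.40 ± 0.15 (SE, adjusted p = 0.269 and 0.362). Hsp90aa1 had 458.4 ± 80.6 TPM in caput and 540.8 ± 94.7 TPM in cauda embryos at 28 h (SD, n = 25 and 24, adjusted p = 0.186). Hspa1a had 38.2 ± 37.9 TPM in caput and 28.9 ± 25.7 TPM in cauda 8-cell embryos (SD, n = 28 and 25), and the 95% interval of its log2 change was -0.09 to 1.85. Only 3 sessions held both caput and cauda 8-cell embryos. The fitted 8-cell changes and the 0% called rest on these sessions, whereas the means are of all embryos.

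**Figure D4:**
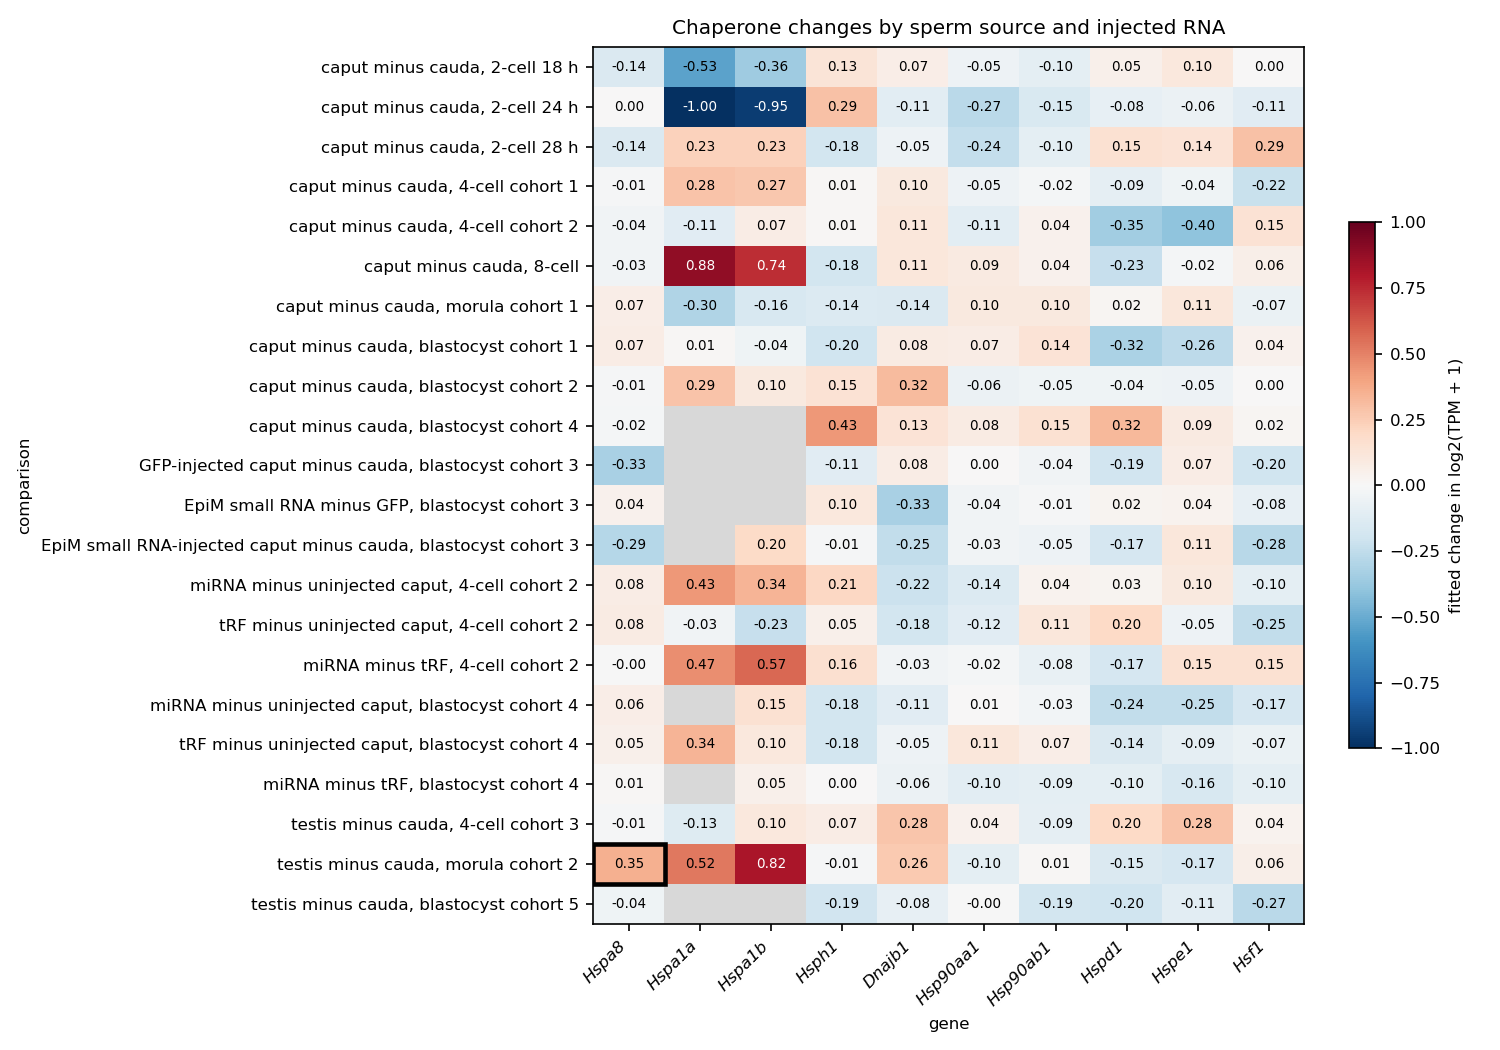
Fitted change in log2(TPM + 1) of the 10 genes (columns) in the 22 comparisons of sperm source and injected RNA (rows). Red is higher in the first-named group, grey was too low to test, and the black frame marks the single call, Hspa8 with a change of 0.35 in testis minus cauda morulae.

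After RNA injection no member passed in 83 tests over 9 comparisons, and the smallest adjusted p was 0.204. The shares of all genes called were 0.466% for EpiM small RNA minus GFP in blastocyst cohort 3, 0.455% for GFP-injected caput minus cauda embryos and 0% for EpiM small RNA-injected caput minus cauda embryos (1163 at an unadjusted p under 0.05). For miRNA minus uninjected caput they were 1.26% in 4-cell cohort 2 and 3.05% in blastocyst cohort 4, for tRF minus uninjected caput 0.00861% and 0% (723 at an unadjusted p under 0.05), and for miRNA minus tRF 0.822% and 1.48%. Hspa8 had 5829.4 ± 690.8 TPM in miRNA-injected, 5942.1 ± 940.4 TPM in tRF-injected and 5633.3 ± 1056.2 TPM in uninjected caput 4-cell embryos (SD, n = 22, 21 and 23). In blastocyst cohort 4 it had 6391.2 ± 2943.5, 5794.8 ± 2703.2 and 5323.2 ± 2203.2 TPM in the same order (SD, n = 30, 30 and 32). The spread between single embryos was larger there than the differences of the means, which does not by itself say whether the means differ. None of these Hspa8 changes passed in limma. Hspe1 with miRNA had the smallest adjusted p, a change of -0.25 ± 0.10 against uninjected caput blastocysts (SE, 8 of 30 injected embryos above the uninjected median). These comparisons share caput or GFP embryos with others here, and the changes are therefore not independent of each other.

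Between testis and cauda embryos, Hspa8 was higher with testis sperm in morulae of cohort 2. It had 6996.1, 9369.8 and 11993.8 TPM (lowest, median and highest) in 34 testis morulae, against 2662.2, 7268.3 and 11324.5 TPM in 34 cauda morulae. The ranges overlapped, and 32 of 34 testis morulae stood above the cauda median. The cauda morulae of cohort 1, from another table and other sessions, had a median of 9828.5 TPM, above this testis median. In cohort 2 the means were 9285.8 ± 1401.8 TPM and 7369.0 ± 1536.9 TPM (SD), a change of 0.35 ± 0.07 (SE, 1.28-fold, adjusted p = 0.00872), where limma called 1.58% of genes. Within the 4 sessions the difference on the log2 scale was 0.25, 0.39, 0.39 and 0.40. The adjusted p was 0.112 with sessions averaged within each group. It was 0.279 without the session whose cauda median was 6545.4 TPM and 0.0577 without the one whose cauda median was 7797.1 TPM. Under each of these settings limma called no gene at all, and the Hspa8 change was 0.36, 0.34 and 0.34. The calls in this cohort, that of Hspa8 among them, thus rest on these sessions and on embryos as replicates. Trophectoderm markers summed to 69.6, 598.1 and 1217.8 TPM in testis and 11.6, 919.7 and 2366.8 TPM in cauda morulae (lowest, median and highest), with all 5 markers at 1 TPM or more, and inner cell mass markers to medians of 2216.8 and 2214.7 TPM. Their part in the result was not tested, and in whole embryos a change in the cells of a type and in RNA per cell cannot be told apart. Hspa1b changed by 0.82 ± 0.29 in the same morulae (SE, adjusted p = 0.115). No member passed at the 4-cell stage (0.0174% of genes called) or in blastocysts (0% called, 568 at an unadjusted p under 0.05). There Hspa8 had 6528.6 ± 983.8 TPM in testis and 6613.3 ± 1119.2 TPM in cauda 4-cell embryos (SD, n = 34 and 33), and 5737.9 ± 2545.1 TPM in testis and 6995.0 ± 1689.5 TPM in cauda blastocysts (SD, n = 28 and 29). Whether the testis effect on Hspa8 differs between stages was not tested.

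**Figure D5:**
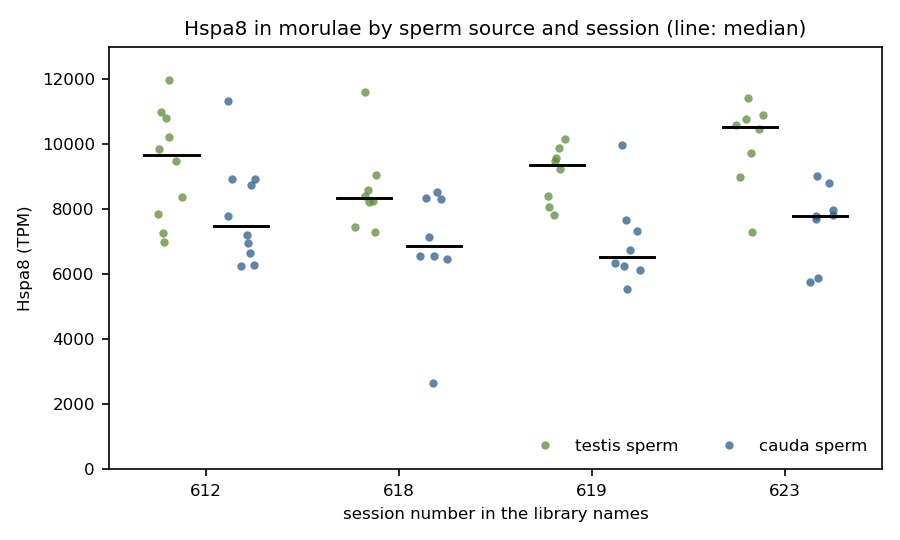
Hspa8 TPM in each morula of cohort 2, testis left of cauda sperm, by session number in the library names, with the median as a line. The testis median is above the cauda median in each of the 4 sessions, for example 10539 against 7797.1 TPM in the last.

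Genes that work with the members were followed in 8 lists. Between 28 h and 18 h the HSP70 exchange factors and regulators had 6 of 12 tested genes higher and 4 lower in cauda embryos, and 6 higher and 3 lower in caput embryos. The HSP90 relatives and co-chaperones had 5 of 17 higher and 6 lower in cauda, and 6 higher and 3 lower in caput embryos. The J-domain co-chaperones had 6 of 21 higher and 9 lower in cauda, and 9 higher and 7 lower in caput embryos. For these lists the direction with more calls was therefore not the same in both sperm sources, except for the exchange factors. The TRiC and prefoldin list had 5 of 14 higher and 7 lower in each. The mitochondrial list had 3 of 10 higher and 6 lower in cauda, and 3 higher and 5 lower in caput embryos. The HSP70 and HSP110 relatives had 3 of 10 higher and 3 lower in cauda, and 5 higher and 2 lower in caput embryos, and the small heat shock proteins 1 of 3 higher and 1 lower in cauda, and 2 higher and 0 lower in caput embryos. Over all tested genes, 4457 were higher and 5121 lower in cauda embryos (72.3% called), and 5008 higher and 4321 lower in caput embryos (68.9% called). In cauda embryos, Bag5, an exchange factor of the BAG family, had 369.7 ± 172.1 TPM at 28 h and 3.82 ± 2.88 TPM at 18 h (SD), and Fkbp4, an HSP90 co-chaperone of steroid receptors, had 237.6 ± 105.8 and 10.7 ± 5.74 TPM. Dnajb9, a J-domain protein of the endoplasmic reticulum, had 954.5 ± 323.6 TPM at 28 h and 54.4 ± 27.2 TPM at 18 h. Lower were Dnajb4, at 131.2 ± 118.4 and 731.5 ± 131.9 TPM, and the prefoldin subunit Pfdn4, at 90 ± 87.4 and 493.7 ± 76.1 TPM in the same order. Stip1, which links HSP70 to HSP90, had 431.7 ± 141.9 TPM at 28 h and 185.2 ± 39.6 TPM at 18 h. Among the heat shock factors and regulators 1 of 6 was higher and 4 lower in cauda, and 1 higher and 3 lower in caput embryos, with Hsf5 in cauda embryos at 16.7 ± 8.92 TPM at 28 h and 46.5 ± 11.5 TPM at 18 h. All changes named here passed in limma.

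Outside the time comparisons, 8 genes of these lists were called in at least 1 of 22 comparisons, with 17 calls, of which 9 were of Bag1, an exchange factor of HSP70. Of all tested genes, 0% to 3.05% were called per comparison. Bag1 was higher with caput than with cauda sperm in 4 of the 10 caput minus cauda comparisons and did not pass in the others. Between testis and cauda embryos it did not pass either. Its medians there were 122.3 and 136.5 TPM at the 4-cell stage, 271.2 and 270.2 TPM in morulae and 108.3 and 67.9 TPM in blastocysts. It had 180.8 ± 55.3 TPM in caput and 111.9 ± 60.3 TPM in cauda embryos of 4-cell cohort 1 (SD, log2 change 0.80 ± 0.14 SE, adjusted p = 6.41e-05). In 4-cell cohort 2 it had 200 ± 40.9 and 110.4 ± 55.7 TPM, in morula cohort 1 266.1 ± 81.7 and 160.2 ± 85 TPM and in blastocyst cohort 4 94.4 ± 48.3 and 61.6 ± 52.3 TPM, in the same order (SD, adjusted p = 0.000152, 0.000679 and 0.00378). With miRNA it was lower than in uninjected caput embryos, at 88.7 ± 41.2 against 200 ± 40.9 TPM in 4-cell embryos (SD, adjusted p = 1.06e-07) and at 44.7 ± 33.6 against 94.4 ± 48.3 TPM in blastocysts (SD, adjusted p = 3.33e-06), and these comparisons share the caput embryos with those above. Against tRF it was lower with miRNA at both stages (adjusted p = 1.87e-06 and 0.00352). It was also lower with EpiM small RNA than with GFP, at 124.9 ± 48 against 202.9 ± 54.3 TPM (SD, adjusted p = 0.0162). Hspa8, the partner of Bag1, did not pass in any of these 9 comparisons. The protease gene Lonp1 had 90.6 ± 17.8 TPM in caput and 57.2 ± 32.2 TPM in cauda embryos of blastocyst cohort 4 (SD, adjusted p = 0.00023).

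Pairs of members were compared between embryos of a group. After removing group and session means, 57 relations of 6 pairs were computed over the cohorts in which both genes had a median of at least 1 TPM, with 100000 permutations each. For Hspd1 and Hspe1, r ranged from -0.18 to 0.65 over 12 cohorts and 9 passed, all positive. The highest r, 0.65 in 4-cell cohort 2 (n = 89), had rho 0.63 and p = 1e-05 by permutation for both, the smallest the permutations can give, with adjusted p = 2.8e-05 and 3.2e-05, and r was 0.61 without the 2 embryos farthest from the median. In 2-cell embryos r was 0.03 for this pair (n = 112, permutation p = 0.74, adjusted 0.82, and rho 0.03, permutation p = 0.79, adjusted 0.87). For Hsp90aa1 and Hsp90ab1, r was -0.10 in 4-cell cohort 1 (n = 64, permutation p = 0.43, adjusted 0.49, and rho -0.13, permutation p = 0.29, adjusted 0.36) and 0.82 in blastocyst cohort 3 (n = 90, rho 0.80, permutation p = 1e-05 for both, adjusted 2.8e-05 and 3.2e-05), with 0.81 without the 2 farthest embryos, and 10 of 12 cohorts passed. Hspa1a and Hspa1b had r of 0.86 to 0.97 in 7 cohorts, and the sharing of reads between these copies was not tested. Hspa8 and Hsph1 had r of 0.03 to 0.61 in 12 cohorts, of which 7 passed by r and 5 by rho. Hspa1a and Dnajb1 had r of -0.25 to 0.54 in 7 cohorts, of which 4 passed by r, 3 of them positive, and 3 by rho. The negative one was in 2-cell embryos (r -0.25, permutation p = 0.0085, adjusted 0.015, and rho -0.16, permutation p = 0.085, adjusted 0.12), and r was -0.14 without the 2 farthest embryos. Hsf1 and Hspa1a had r of -0.22 to 0.33 in 7 cohorts, of which 3 passed by r, all positive. By rho 2 passed, in opposite directions: 0.27 in 4-cell cohort 2 (permutation p = 0.01, adjusted 0.018) and -0.36 in 4-cell cohort 1 (permutation p = 0.0035, adjusted 0.0065). All these values share the depth and composition of a library. No other pairs were computed, so whether these passed more often than gene pairs in general is not known.

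Across the 33 group medians of log2(TPM + 1), the genes most like each member, of 11270 compared, were found as a description. For Hspa8, Snx5 and Rbmxl1 were among them, each with an r of 0.991. For Hspa1a they were Hspa1b (0.99), Ficd (0.959) and Fxr2 (0.953). For Hsp90aa1 they were Ifi30, Ndfip1 and Serpinb6a (0.971 to 0.98), and for Hsp90ab1 Bhmt, Slc43a3 and Saal1 (0.978 to 0.985). For Hsph1 the likeness was lower, 0.891 with Dennd2c, and for Hsf1 it was 0.984 with Usp21. Dnajb1 was most like Zc3h12c (0.96), Hspd1 like Asns (0.979) and Hspe1 like Vdac2 (0.972). Among the members, Hspa8 and Hsp90ab1 had r of 0.97, Hspd1 and Hsp90aa1 0.92, and Hsf1 and Hspd1 -0.89.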

How the data were processed

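Single-embryo Smart-seq2 libraries were grouped by sperm source, injected RNA, stage and hour from the labels. The authors deposited TPM in 12 tables. Bowtie and mm10 are named in the submitters' processing notes, and versions, the counting tool and the annotation are not given in the sources used here. TPM keep no depth, so precision is the spread between embryos. Growth notes give 28 h for every sample, and stage labels were used. In all, 2 columns of no mapped sample and 2 rows naming no gene were left out.

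log2(TPM + 1) was fitted with limma 3.58.1 (R 4.3.3) with group and session (the number in the library names) as terms, trend and robust variances, over all groups of a table. Benjamini-Hochberg adjustment ran over all genes that reached 1 TPM in a number of embryos equal to 50% or more of the smaller group's size, and calls have an adjusted p under 0.05. Other values came from Python 3.11.15. The fit was also run on simulated data, drawn with independent embryos and no session effect. Such data cannot check the part of sessions or shared parents. Members, lists and the named-gene rule (all members, and at most 4 called genes of a list per comparison) were chosen with earlier results of these data known. In blastocyst cohort 3 a pair of sessions was merged, since title and description disagree for 8 embryos. Embryo numbers do not pair embryos across groups by the labels. A gene among those most like Hspa8 is not reported here.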

Additional observations from a re-analysis of the deposited data

How the results depend on the processing

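Of 3025 member changes recomputed under other settings, 3014 kept their side of the threshold, 10 calls were lost, 1 was gained and none reversed. Most of these changes were not called to begin with, so the total says little of how stable the calls are. The single call outside the time comparisons, Hspa8 in testis minus cauda morulae, was lost in 3 of 12 settings. The settings were another pseudocount, no filter, no session term, the embryo number as a block, only the groups compared, median-ratio scaling, a mean per session and group, the Hspa1a and Hspa1b sum, libraries of few genes left out and each session left out. Leaving out libraries closest to another stage was chosen after seeing the data. The Hspa8 difference between testis and cauda morulae ranged from 0.27 to 0.40 on the log2 scale. The number of members called there was 0 with sessions averaged within each group, and 0 to 1 with a session left out. With the replicate block in place of the session the Hspa8 difference was 0.35 and kept its call, and the block changed no member call. No such block was fitted in blastocyst cohort 3, where numbers are not from the labels. Embryo numbers were not used as a pairing, since the labels give none. Same-numbered embryos had median correlations of -0.12 to 0.27 over the comparisons, and in none was every pair over 0.1. The highest medians, 0.27 and 0.24, were those of miRNA and tRF minus uninjected caput in blastocyst cohort 4. There 18 and 15 of 29 pairs were over 0.1. These values cannot show whether some same-numbered embryos share an origin. In blastocyst cohort 4, caput minus cauda, leaving out a session gave 0 to 1 member called, Hspd1 without 1 of them (adjusted p = 0.0175). Hspd1 at 28 h minus 18 h lost its call in caput embryos with a mean per session and group (adjusted p = 0.165), with only the groups compared (0.0612) and without session 114, 122 or 126 (0.0746, 0.0874 and 0.189), and so did Hspd1 in cauda (0.18) and Hspe1 in caput embryos (0.0592) without session 126. By stage, with means in place of medians the number of 6 neighbouring stage pairs that did not overlap was 5 against 3 for Hsph1 and 3 against 5 for Dnajb1, and in cauda embryos alone 5 for Hsph1 and 6 against 3 for Hspd1. The cause was not tested. Unknown depth limits what can be said of Hspa1a and Hspa1b near 0.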
